A study of Mus musculus with 12 samples.

Results

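Colon RNA from mice of the FGF1 group was compared with colon RNA from control mice, over the 12367 of 22377 listed genes that reached 1 FPKM in at least 4 of the 8 libraries concerned. FPKM counts the fragments of a transcript scaled for its length and for the library's size, and a gene's FPKM is here the sum over its listed transcripts. Of the genes kept, 11746 were protein-coding. The genes kept had 58175 listed transcripts, 21592 of which passed the same filter on their own. Near the limit, Dusp26 (1.0005 FPKM in the library that decided) was kept and Cp (0.9997 in that library) was not; 341 genes reached 1 FPKM in exactly 4 libraries and 306 in exactly 3. Among the genes kept, 63 passed on the 4 control libraries alone and 11 on the 4 FGF1 libraries alone, so these had to differ. The groups, of 4 libraries each, are known by a treatment label: control, FGF1 (fibroblast growth factor 1) and DSS (dextran sulfate sodium, which injures the colon lining). The design text speaks of supplying recombinant FGF1 to mice with bowel inflammation, but the labels do not state whether the FGF1 mice also received DSS. Strain, sex, age, dose, route, duration and hour of collection are missing from the labels, nor do they say that the 4 libraries of a group came from separate animals. All p-values therefore measure the spread between these libraries.

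FGF1 is a secreted growth factor that binds all FGF receptors, and the receptors signal through the RAS and ERK kinases. That signal induces its own inhibitors, the Sprouty and Spred proteins and the dual-specificity phosphatases, whose messages are commonly read as a record of pathway activity. In the colon wall, epithelial stem cells at the crypt base give rise to absorptive cells and to secretory cells such as mucus-making goblet cells. Fibroblasts below the crypts supply Wnt, BMP and FGF ligands and the inhibitors of those ligands.

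Control libraries listed 52364 to 54313 transcripts and FGF1 libraries 50174 to 51834, so the groups did not overlap (difference -2321, two-sided exact permutation test, p = 0.0286, the smallest that 4 against 4 allows; p = 0.0571 without FGF1 1 or FGF1 2). Counting only transcripts at 1 FPKM or more, the difference was -773 (exact permutation test, p = 0.0857). Genes at 1 FPKM or more numbered 12287 to 12721 in control and 11782 to 12245 in FGF1. Pairs of control libraries had a median Spearman correlation of 0.958, pairs of FGF1 libraries 0.957 and pairs across the groups 0.947, over genes. Epithelial markers were abundant in all 8 libraries (Epcam from 661 to 919 FPKM). The mean log2(FPKM + 1) of 20 smooth muscle genes was 6.72, 6.72, 8.17 and 7.77 in control 1 to 4 and 6.91, 6.55, 7.79 and 5.63 in FGF1 1 to 4. Control 3 and FGF1 3 were the libraries richest in muscle RNA and FGF1 4 the poorest.

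Limma called 11 genes at an adjusted p under 0.05 (0.0889% of the genes tested), 2 higher in FGF1 (0.0162%) and 9 lower (0.0728%). A further 99 had an adjusted p between 0.05 and 0.1. The genes that rose were Nr1d2, a nuclear receptor of the circadian clock that represses transcription, and Mvd, an enzyme of the mevalonate pathway to cholesterol. The genes that fell were Ccl11, a chemokine that attracts eosinophils, C1qtnf3, a secreted protein of connective tissue, Mgl2, a lectin of tissue macrophages and dendritic cells, Scgn, a calcium-binding protein of hormone-secreting cells, Iyd, which removes iodide from iodotyrosines, and 4 immunoglobulin variable segments. At an unadjusted p under 0.05 there were 1721 genes (13.9%). All 4 FGF1 values lay above all 4 control values in 457 genes (3.7%) and below them in 821 (6.64%), so 10.3% of genes did not overlap. A smaller group overlaps less easily: without FGF1 3 the counts were 797 and 1725, without control 3 779 and 1101, and without FGF1 1 731 and 1064. The share of all genes wholly below the controls was then 9.21%, 9.93%, 8.9% and 8.13% without control 1 to 4, and 8.6%, 7.9%, 13.9% and 8.06% without FGF1 1 to 4. The share wholly above was 5.21%, 5.13%, 6.3% and 4.98% without control 1 to 4, and 5.91%, 4.29%, 6.44% and 4.49% without FGF1 1 to 4. With all 8 libraries, the shares below and above were 5.36% and 5.28% under median-of-ratios scaling and 7.1% and 2.93% with equal totals. They were 4.8% and 3.36% from start-event values and 5.41% and 3.44% from the largest transcript. Counts of list members under these alternatives, given below, are to be read against these shares. Of the 821 lower genes 63 passed the filter through the controls alone, and of the 457 higher genes 11 through FGF1 alone.

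Among these calls, Ccl11 stood at 9.46, 8.56, 5.46 and 3.87 FPKM in the control libraries and at 0.416, 0.886, 1.59 and 0.299 in the FGF1 libraries (log2 fold change -2.11 ± 0.30, SE; limma, adjusted p = 0.0377). C1qtnf3 stood at 3.50, 4.19, 4.83 and 4.53 in control and at 0.976, 1.13, 1.91 and 1.17 in FGF1 (-1.21 ± 0.18, limma, adjusted p = 0.0377). Mgl2 stood at 2.09, 2.67, 2.12 and 2.27 in control and at 0.428, 0.475, 0.796 and 0.926 in FGF1 (-0.998 ± 0.14, limma, adjusted p = 0.0377). Mgl2 passed the filter through the controls alone, so its groups had to differ. In each of these genes every FGF1 library lay below every control library, and the DSS libraries were also low, at 0.472 ± 0.447 FPKM for Ccl11, 0.326 ± 0.301 for C1qtnf3 and 0.123 ± 0.0930 for Mgl2 (SD, n = 4). In whole tissue, fewer cells of a type and less RNA per cell cannot be told apart. Iyd stood at 6.25, 8.03, 6.28 and 6.89 in control and at 3.48, 3.01, 3.96 and 3.12 in FGF1 (-0.84 ± 0.13, limma, adjusted p = 0.0447). In DSS it stood at 6.22 ± 0.987, a mean above all 4 FGF1 libraries. Scgn stood at 3.93, 4.70, 4.73 and 3.49 in control and at 1.55, 1.56, 1.96 and 1.52 in FGF1 (-0.97 ± 0.15, limma, adjusted p = 0.0377). These are differences on the log2(FPKM + 1) scale, which understates changes in low genes.

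The rest of the places for genes of smallest p went to Gm12551, a pseudogene, the noncoding genes Gm53 and 1810019D21Rik, and Cox6b2, a cytochrome oxidase subunit, none of them called. Gm12551 had 2.35, 2.10, 0.696 and 0.957 FPKM in control and 4.36, 6.84, 5.24 and 4.20 in FGF1 (1.33), and Gm53 28.4, 31.4, 32.7 and 27.3 and 50.96, 54.8, 41.4 and 47.8 (0.68). 1810019D21Rik had 18.5, 21.1, 30.5 and 14.98 and 38.7, 48.3, 38.3 and 45.7 (1.01), and Cox6b2 16.9, 15.9, 17.7 and 16.5 and 12.9, 8.401, 9.84 and 8.37 (-0.73). Limma gave them adjusted p from 0.0529 to 0.0646.

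The number of calls was small and moved with single libraries. Leaving out FGF1 3 gave 86 calls, whereas leaving out control 1, control 2, control 4, FGF1 1, FGF1 2 or FGF1 4 gave 1 to 3, and leaving out control 3 gave 11, of which 5 were among the 11 here. With 1 FPKM required in all 8 libraries limma called 0 genes, with 1262 at an unadjusted p under 0.05. A fit without a trend gave 37, the 8 libraries alone 38, and a pseudocount of 0.1 none, with 1579 genes at an unadjusted p under 0.05. With a median-of-ratios scaling 16 genes were called, 7 of them higher, against 2 of 11 here. The Ighv2-2 call held in 18 of 20 alternatives (this gene passed the filter through the controls alone), that of Ccl11 in 11 of 20, that of Nr1d2 in 8 of 21, that of Mvd in 7 of 21 and those of the other 7 genes in 7 to 10 of 20 or 21, and no alternative turned the direction of any of the 11 genes. Genes that were not called are described below by their values and by counts of genes whose groups did not overlap.

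Several feedback inhibitors of the FGF pathway had lower values in FGF1. The receptors of the pathway and the endogenous ligand overlapped, as did Dusp6 among the inhibitors. Fgf1 itself had 8.48 ± 0.978 FPKM in control and 7.12 ± 1.65 in FGF1 (SD, n = 4 each; adjusted p = 0.644). This is the mouse's own message, to which supplied protein would not add. Of 11 kept ligands and receptors none was called by limma, and 1, Fgf7, had an unadjusted p under 0.05 and did not overlap (9.09% of the list against 6.64% of all genes). Fgf7, a fibroblast ligand that acts on epithelium, had 1.38, 1.29, 2.44 and 1.28 FPKM in control and 0.179, 0.555, 1.27 and 0.230 in FGF1 (-0.76 ± 0.22, limma, adjusted p = 0.157). The gap was narrow, and the groups overlapped under median-of-ratios scaling, with equal totals and with the largest transcript alone. Among the receptors, Fgfr1 had 10.04 ± 5.05 FPKM in control and 5.10 ± 2.78 in FGF1, Fgfr2 14.1 ± 3.76 and 12.6 ± 3.02, Fgfr3 3.86 ± 1.06 and 3.54 ± 0.456, and Fgfr4 5.68 ± 1.17 and 6.88 ± 0.544. All 4 receptors overlapped between the groups, with limma adjusted p from 0.376 for Fgfr1 to 0.912 for Fgfr3, and the sign for Fgfr3 turned without control 3 (0.03).

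Of 30 kept genes of the FGF and ERK cascade and its feedback, none was called by limma, 8 were lower and 1 higher at an unadjusted p under 0.05, and 6 lay wholly below the controls (20% of the list against 6.64% of all genes). Spry4, an ERK-induced inhibitor of receptor signalling, had 3.24, 2.51, 2.63 and 2.40 FPKM in control and 0.890, 1.06, 1.71 and 0.799 in FGF1 (-0.82 ± 0.18, limma, adjusted p = 0.0911). Spry1, of the same family, had 6.35, 5.82, 6.26 and 5.72 and 1.94, 2.35, 4.42 and 3.75 (-0.82 ± 0.25, limma, adjusted p = 0.175), though its largest transcript alone gave 0.07. No FGF1 library reached the control range of either gene. Spred1 (-0.35) and Il17rd, an inhibitor of FGF receptors (-0.39), also did not overlap, but Il17rd passed the filter through the controls alone and had to differ. Dusp6, a phosphatase that switches off ERK, had 31.9, 32.2, 16.4 and 27.3 in control and 14.9, 11.3, 21.6 and 10.1 in FGF1, and overlapped through control 3 and FGF1 3 (-0.87 ± 0.26, limma, adjusted p = 0.175). Etv4, an ERK-induced transcription factor, had 4.22 ± 3.91 and 2.92 ± 1.57 FPKM, with a sign that turned without control 3 (0.20). Map2k2, the kinase directly above ERK, was the member on the other side, with 56.2 to 73.1 FPKM in control and 78.8 to 88.4 in FGF1 (0.33 ± 0.10, limma, adjusted p = 0.173), and its largest transcript alone gave -3.69. Without FGF1 3, 11 members lay below the controls, against 13.9% of all genes in that setting. From start-event values 5 did (16.7%), and from the largest transcript 4 (13.3%). Sprouty genes are expressed in muscle, neurons and vessels as well as in epithelium. The mean of endothelial genes did not overlap between the groups, while those of smooth muscle and enteric genes did (values below), and their part in the Sprouty values was not tested.

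Circadian clock genes lay apart in both directions. The mammalian clock is a loop in which ARNTL (BMAL1) with CLOCK or NPAS2 binds E-box sequences and activates Per, Cry, Nr1d, Dbp and Tef genes. NR1D1 and NR1D2 in turn repress Arntl, Npas2 and Nfil3 through RORE sequences, and DBP, TEF and NFIL3 compete for D-box sequences. Of 18 kept clock genes, 7 lay wholly above the controls (38.9% against 3.7% of all genes) and 3 wholly below (16.7% against 6.64%), while 1 was called. Ciart, 1 of the 7, passed the filter through the FGF1 libraries alone and had to differ.

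Promoters of 5 of these genes are shown, to place the motifs named above beside the values that follow. Each line gives the 250 bases that precede the start site, 5′ to 3′ on the gene's strand, from RefSeq on GRCm38.p6, in lower case with the motif in capitals. The motifs searched on both strands were the E-box CACGTG (in 6.02% of 32851 promoter windows), the D-box TTANGTAA (2.06%) and the RORE core TAGGTCA (2.23%). Of the 18 kept clock genes 15 had a window, with 20 windows among them. The E-box was held by 4 of these genes (Ciart, Cry1, Per1 and Tef), the D-box by 1 (Per3) and the RORE core by 1 (Nfil3). These are counts of genes and the percentages are shares of windows, so they are not directly comparable. The E-box windows of Cry1, whose log2 fold change was -0.49, and of Per1 are not shown. In Ciart (chr3:95882229-95882478, minus strand) 3 E-boxes stood within 116 bases of the start site. In Per3 (chr4:151044666-151044915, minus strand) 2 D-boxes did not overlap each other. RefSeq's start sites lay 0 to 34 bases downstream of GENCODE's in Ciart, Per3, Nfil3 and Nr1d2. The start behind the Tef window lay 252 bases downstream, so that window lies inside the gene as GENCODE gives it. The windows of Tef (chr15:81802423-81802672, plus strand, 1 of its 2 windows), Nfil3 (chr13:52981040-52981289, minus strand) and Nr1d2 (chr14:18239107-18239356, minus strand) held 1 E-box, 1 RORE core read on the opposite strand, and none of these letters. A match is a description of the sequence and not a measured site.
Ciart: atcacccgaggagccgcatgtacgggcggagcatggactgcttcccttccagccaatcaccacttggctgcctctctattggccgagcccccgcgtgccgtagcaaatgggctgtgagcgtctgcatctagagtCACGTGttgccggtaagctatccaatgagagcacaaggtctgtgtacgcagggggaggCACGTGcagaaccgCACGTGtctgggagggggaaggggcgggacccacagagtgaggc
Tef: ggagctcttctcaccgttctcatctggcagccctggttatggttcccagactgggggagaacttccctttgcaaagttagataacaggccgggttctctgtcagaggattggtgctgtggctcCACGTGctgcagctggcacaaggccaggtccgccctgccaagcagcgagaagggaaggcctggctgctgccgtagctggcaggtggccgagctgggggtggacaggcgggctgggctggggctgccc
Per3: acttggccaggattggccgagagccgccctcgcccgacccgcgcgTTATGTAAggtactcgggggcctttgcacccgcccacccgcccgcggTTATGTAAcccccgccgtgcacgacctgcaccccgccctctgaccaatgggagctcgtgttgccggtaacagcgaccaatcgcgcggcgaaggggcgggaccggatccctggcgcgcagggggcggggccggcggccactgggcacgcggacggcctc
Nfil3: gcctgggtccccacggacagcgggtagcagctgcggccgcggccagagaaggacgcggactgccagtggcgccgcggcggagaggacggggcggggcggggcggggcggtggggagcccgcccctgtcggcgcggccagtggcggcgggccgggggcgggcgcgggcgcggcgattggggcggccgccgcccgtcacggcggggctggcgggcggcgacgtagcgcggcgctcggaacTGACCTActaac
Nr1d2: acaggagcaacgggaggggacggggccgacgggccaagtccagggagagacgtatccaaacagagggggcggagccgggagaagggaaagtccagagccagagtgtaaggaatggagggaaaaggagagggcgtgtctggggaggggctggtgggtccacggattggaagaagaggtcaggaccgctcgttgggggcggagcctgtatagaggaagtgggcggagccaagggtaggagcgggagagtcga

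Nr1d2 (chr14:18204054-18239127, minus strand) stood at 3.70, 5.06, 3.31 and 5.41 FPKM in the control libraries and at 10.4, 14.1, 10.8 and 13.1 in the FGF1 libraries, so that every FGF1 value lay above every control value (1.299 ± 0.19, SE; limma, adjusted p = 0.0377). Its relative Nr1d1 stood at 4.17, 4.61, 4.08 and 5.38 in control and at 9.47, 15.4, 8.97 and 10.3 in FGF1 (1.09 ± 0.24, limma, adjusted p = 0.0962). Dbp, which drives clock output through D-boxes, stood at 2.49, 3.33, 2.30 and 2.004 and at 11.9, 10.8, 15.4 and 7.87 (1.80 ± 0.30, limma, adjusted p = 0.0529). In each of these 3 genes the lowest FGF1 value was well above the highest control value. Tef, with the E-box shown above in the window of its later start, stood at 6.05, 6.32, 4.19 and 4.04 in control and at 7.71, 9.26, 10.7 and 15.9 in FGF1. Per3, a period gene, stood at 1.47, 1.85, 1.498 and 1.44 and at 2.87, 5.01, 2.21 and 4.64. Ciart, a repressor of CLOCK and ARNTL, stood at 0.361, 0.259, 0.556 and 0.291 and at 1.12, 2.15, 1.62 and 1.28. These 3 genes did not overlap between the groups and were not called (log2 fold changes 0.93, 0.82 and 0.88; limma, adjusted p = 0.166, 0.159 and 0.0911). Bhlhe40, another repressor of the loop, stood at 44.5, 36.2, 28.4 and 26.6 in control and at 45.6, 52.0, 47.9 and 52.2 in FGF1 (0.56 ± 0.17, limma, adjusted p = 0.1799).

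The activating limb and the genes repressed by NR1D1 and NR1D2 lay on the other side. Arntl had 18.9, 22.6, 18.4 and 16.7 FPKM in control and 10.9, 10.2, 13.7 and 11.2 in FGF1 (-0.69 ± 0.22, limma, adjusted p = 0.197). Npas2, the partner of ARNTL, had 10.04, 10.1, 9.49 and 11.2 and 7.93, 5.72, 9.21 and 5.16 (-0.51 ± 0.22, limma, adjusted p = 0.322). Nfil3, with the RORE core shown above, had 9.40, 9.62, 10.2 and 11.8 and 6.39, 8.44, 6.21 and 7.32 (-0.48 ± 0.18, limma, adjusted p = 0.269). All 3 lay wholly below the controls. Cry1 and Per2, other negative limb genes, overlapped, with 16.2 ± 1.11 and 11.6 ± 3.42 FPKM for Cry1 and 5.74 ± 2.04 and 6.80 ± 1.83 for Per2. The count of 7 higher genes was 7 without any single library and under both other scalings, and 5 with start-event values; the count of lower genes ran from 2 to 4 over these settings. In the DSS libraries, which share the same controls, Nr1d2 stood at 12.02 ± 3.39 FPKM, Nr1d1 at 11.8 ± 4.76, Dbp at 6.62 ± 4.01 and Arntl at 10.1 ± 4.05 (SD, n = 4). The hour of collection is not stated for any group, so treatment and time of day cannot be told apart in these genes.

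**Figure D1:**
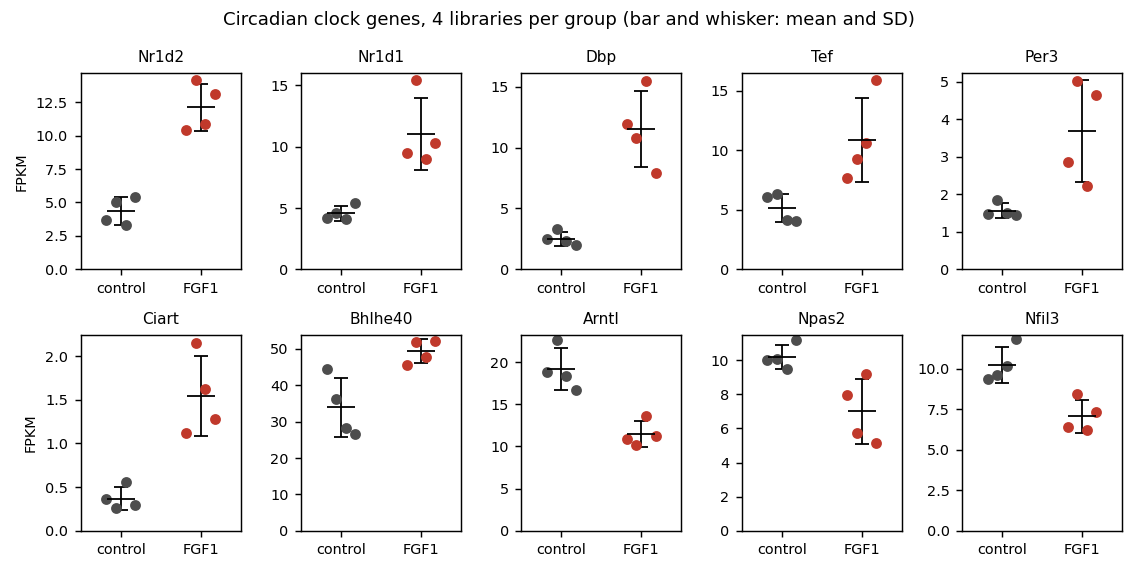
FPKM of 10 circadian clock genes (vertical axes, each from 0) in the 4 control and 4 FGF1 libraries (points), with the group mean and SD. The FGF1 points of Nr1d2, Nr1d1, Dbp, Tef, Per3, Ciart and Bhlhe40 lie above all control points, and those of Arntl, Npas2 and Nfil3 below them.

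Genes of sterol synthesis had higher values in FGF1. Cells make cholesterol from acetyl-CoA through mevalonate, and when sterols run low the factor SREBF2 activates the whole pathway. Of 30 kept genes of sterol and fatty acid synthesis, 1 was called, 15 were higher and none lower at an unadjusted p under 0.05, and 11 lay wholly above the controls (36.7% against 3.7% of all genes). The median log2 fold change of the list was 0.34, against -0.04 over all genes. Mvd (chr8:122433601-122443422, minus strand), which decarboxylates mevalonate diphosphate, stood at 17.6, 16.02, 22.9 and 17.6 FPKM in control and at 27.04, 30.8, 33.5 and 31.9 in FGF1 (0.71 ± 0.11, SE; limma, adjusted p = 0.0495). Nearer the start of the pathway, Hmgcs1, which makes HMG-CoA, stood at 39.3, 40.9, 53.4 and 38.4 in control and at 57.8, 62.3, 78.2 and 64.5 in FGF1 (0.604 ± 0.14, limma, adjusted p = 0.107). No FGF1 library of either gene fell within the control range, but start-event values alone gave -0.20 for Hmgcs1.

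Further down the pathway, Cyp51, which demethylates lanosterol, had 22.4 ± 3.54 FPKM in control and 35.2 ± 4.09 in FGF1 (SD, n = 4 each; 0.64 ± 0.13, limma, adjusted p = 0.0868). Msmo1, the following demethylase, had 36.9 ± 5.28 and 54.5 ± 9.20. Fdft1, which commits farnesyl diphosphate to squalene, had 19.4 ± 4.35 and 34.6 ± 6.70. Insig1, which holds SREBF2 in the endoplasmic reticulum, had 15.4 ± 2.79 and 25.6 ± 7.59. All of these lay wholly above the controls. The log2 fold changes were 0.54 for Msmo1, 0.81 for Fdft1 (-0.16 from its largest transcript alone) and 0.67 for Insig1 (limma, adjusted p = 0.132, 0.159 and 0.258). The gaps between the groups were narrow. The highest control and lowest FGF1 values were 44.41 and 44.83 FPKM for Msmo1, 24.65 and 26.67 for Fdft1, and 18.06 and 18.47 for Insig1. The regulators themselves, Srebf1 (0.32) and Srebf2 (0.02), overlapped. The fatty acid side was mixed: Scd2, a desaturase, had 11.4 ± 1.36 and 18.9 ± 4.26 (0.66 ± 0.15, limma, adjusted p = 0.0998), whereas Fasn (0.27) and Scd1 (-0.66) overlapped. In DSS, Mvd stood at 22.9 ± 1.496, Scd2 at 11.3 ± 1.40 and Cyp51 at 35.3 ± 3.68 FPKM.

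Of the 30 sterol genes 20 had a promoter window, with 26 windows among them. The sterol regulatory element TCACNCCAC (both strands, in 1.05% of 32851 windows) was held by 1 of these genes, Hmgcs1. The window of Hmgcs1 (chr13:119690101-119690350, plus strand) is shown with that element in capitals, beside that of Mvd (chr8:122443423-122443672, minus strand), the member that was called, which held none of the 4 motifs. For Hmgcs1 RefSeq's start differed from GENCODE's by -28 bases, lying upstream of it, and for Mvd by 0.
Hmgcs1: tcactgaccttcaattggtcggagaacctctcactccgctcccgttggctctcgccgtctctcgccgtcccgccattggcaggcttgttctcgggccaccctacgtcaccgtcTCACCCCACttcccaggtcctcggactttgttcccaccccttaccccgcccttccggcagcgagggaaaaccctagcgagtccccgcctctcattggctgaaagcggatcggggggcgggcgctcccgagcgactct
Mvd: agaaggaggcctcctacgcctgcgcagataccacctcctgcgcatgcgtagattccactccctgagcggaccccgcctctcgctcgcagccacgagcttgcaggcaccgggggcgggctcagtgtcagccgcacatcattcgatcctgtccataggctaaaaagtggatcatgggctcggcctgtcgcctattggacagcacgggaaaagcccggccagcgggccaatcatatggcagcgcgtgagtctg

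Most ribosomal protein messages had slightly higher values in FGF1. All 40 kept cytosolic ribosomal protein genes on the list had a log2 fold change above 0 (from 0.21 to 0.55, median 0.33), against 42.5% of all genes. None was called by limma, 17 were higher at an unadjusted p under 0.05, and 22 lay wholly above the controls (55%). Rplp0, a stalk protein of the large subunit, had 867, 752, 971 and 876 FPKM in control and 1245, 1270, 1272 and 1210 in FGF1 (0.53 ± 0.14, limma, adjusted p = 0.152). The FGF1 libraries lay close together and above the highest control. Rps9 had 462, 422, 654 and 600.1 and 836, 794, 698 and 756 (0.55 ± 0.20, limma, adjusted p = 0.257). Without FGF1 3, 35 of 40 lay above the controls. Over all 80 kept genes with a ribosomal protein symbol, 76 had a log2 fold change above 0 and 4 below (lowest -0.13), none was called by limma, 25 were higher at an unadjusted p under 0.05 and 43 lay wholly above the controls (53.8%; 26 with equal totals). Near-identical processed copies of these genes exist, so single values are uncertain. Of 40 kept genes of mitochondrial respiration 36 had a log2 fold change above 0, with a median of 0.14. None of the 40 was called by limma, 1 was higher at an unadjusted p under 0.05 and 3 lay wholly above the controls (7.5%; 12 without FGF1 3, 10 without control 1, 6 under median-of-ratios scaling and 5 without control 3 or control 4 or from start-event values).

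**Figure D2:**
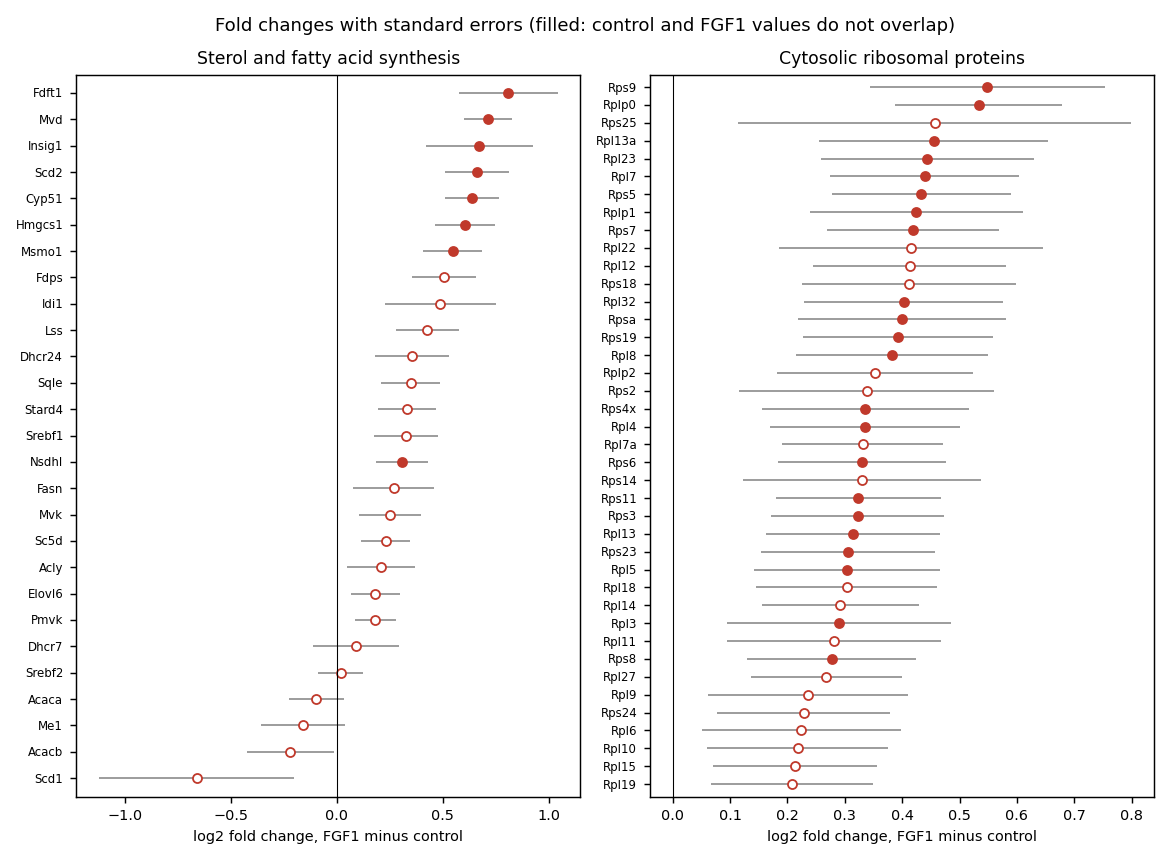
Log2 fold change of FGF1 against control (horizontal axis, log2(FPKM + 1) scale) with its SE for 27 of the 30 kept sterol and fatty acid synthesis genes and 40 cytosolic ribosomal protein genes; filled points mark genes whose 4 FGF1 values lie above all 4 control values. All 40 ribosomal points lie between 0.21 and 0.55, and 23 of the 27 sterol and fatty acid points lie above 0.

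Genes tied to glucocorticoid action lay on both sides of the controls. Glucocorticoids are made in the gut wall as well as in the adrenal gland, and the enzyme HSD11B2 inactivates them while HSD11B1 regenerates them. Hsd11b2 stood at 54.4, 79.3, 46.6 and 57.9 FPKM in control and at 87.6, 222, 155 and 159 in FGF1 (1.33 ± 0.26, limma, adjusted p = 0.0801). Hsd11b1 stood at 4.19, 3.45, 3.40 and 2.24 and at 0.450, 1.03, 0.675 and 0.668 (-1.33 ± 0.23, limma, adjusted p = 0.0545). The groups did not overlap in either gene, with opposite directions, and neither was called. In DSS, Hsd11b2 stood at 160.6 ± 33.9 FPKM and Hsd11b1 at 0.440 ± 0.511 (SD, n = 4), on the same sides of the controls. Of 16 kept glucocorticoid response genes none was called by limma, and 6 were higher and 2 lower at an unadjusted p under 0.05. Wholly above the controls lay 5 (31.2% against 3.7% of all genes) and wholly below them 1 (6.25% against 6.64%). The count above was 6 without FGF1 3 and 5 from start-event values or the largest transcript. The count below was 0 from start-event values and 2 from the largest transcript. The metallothioneins Mt1 and Mt2 bind metals and are induced by zinc and by glucocorticoids. Mt1 had 157, 179.5, 118 and 126 FPKM in control and 613, 549, 190.5 and 384 in FGF1 (1.46 ± 0.45, limma, adjusted p = 0.183). Mt2 had 74.8, 81.5, 48.5 and 37.2 and 396, 413, 92.2 and 249 (2.08 ± 0.59, limma, adjusted p = 0.157). Both lay wholly above the controls, and FGF1 3 was the lowest FGF1 library for both. Ddit4, a stress-induced brake on mTOR, had 24.5 ± 3.83 and 42.2 ± 4.52 (SD, n = 4 each), and Fkbp5, a glucocorticoid receptor co-chaperone, overlapped at 52.6 ± 15.1 and 76.8 ± 24.3.

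Epithelial junction genes lay slightly higher in FGF1. Of 29 kept junction and adhesion genes 28 had a log2 fold change above 0 (median 0.24). None was called by limma, 7 were higher and none lower at an unadjusted p under 0.05, and 5 lay wholly above the controls (17.2% against 3.7% of all genes). That count was 14 without FGF1 1, 8 without control 2 or under median-of-ratios scaling, and 4 from the largest transcript. Lama3, the alpha chain of the basement membrane laminin on which epithelium sits, stood at 3.08, 3.47, 2.93 and 2.88 FPKM in control and at 7.06, 9.19, 7.60 and 13.6 in FGF1 (1.303 ± 0.23, limma, adjusted p = 0.0646). It stood at 4.17 ± 1.77 in DSS. Lamb3, the beta chain that pairs with it, had 28.7 ± 8.21 and 39.3 ± 4.63 FPKM and overlapped. Among tight junction genes, Tjp3 had 71.7 to 81.9 FPKM in control and 86.6 to 119 in FGF1 (0.36 ± 0.12, limma, adjusted p = 0.212). Cldn7, a claudin, had 302 to 362 and 374 to 455 (0.28), and Marveld2, a protein of junctions where 3 cells meet, 11.5 to 12.7 and 14.3 to 15.2 (0.26, but -0.13 from its largest transcript alone). Epcam, a general epithelial adhesion protein, had 788, 661, 686 and 770.1 in control and 835, 919, 838 and 837 in FGF1, so that a gap of the same sort (0.24) was present in a general marker of epithelium. Vil1, a brush border protein, overlapped at 193 ± 29.7 and 205 ± 24.8, with a sign that turned without control 3 (-0.0067). The part of the epithelial share of the RNA in these values was not tested.

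Several single genes expressed in epithelium lay far apart. Clca4b, of the calcium-activated chloride channel regulator family, stood at 1.34, 1.04, 1.13 and 1.83 FPKM in control and at 28.4, 24.1, 13.99 and 35.8 in FGF1 (3.44 ± 0.58, limma, adjusted p = 0.0529). In DSS its values were 28.1, 2.55, 5.63 and 1.84. It has close paralogs beside it in the genome, between which reads may be split. Prss22, a serine protease, was listed at 0 in all 4 control libraries and stood at 1.45, 2.80, 1.21 and 3.72 in FGF1 (limma, adjusted p = 0.0758). The 0 may be a failed estimate. Mmp7, a metalloprotease of secretory and injured epithelium, stood at 0.808, 0.773, 0.220 and 0.973 in control and at 4.58, 13.6, 3.09 and 8.55 in FGF1 (2.17 ± 0.46, limma, adjusted p = 0.0911). Myo1a, the myosin of the brush border, stood at 81.3, 86.3, 88.1 and 93.5 and at 117, 154, 129.7 and 182 (0.71 ± 0.14, limma, adjusted p = 0.0771). Prss22 and Mmp7 passed the filter through the FGF1 libraries alone, so their groups had to differ. Clca4b and Myo1a did not overlap between the groups, and none of the 4 genes was called. Pycard, the adaptor that links inflammasome sensors to caspase-1, stood at 40.8, 33.9, 36.8 and 39.1 and at 54.2, 56.9, 48.7 and 58.1 (0.52 ± 0.10, limma, adjusted p = 0.0675). Naip5, a sensor of bacterial flagellin, stood at 13.98, 12.02, 14.5 and 14.8 and at 20.6, 22.1, 18.1 and 20.1 (0.52 ± 0.10, limma, adjusted p = 0.0860). Of 16 kept gasdermin and inflammasome genes none was called by limma and 3 were higher at an unadjusted p under 0.05. Those 3 (Pycard, Naip5 and Gsdmd) lay wholly above the controls (18.8%), and 1, Gsdmc4, lay wholly below (6.25%; 3 without control 2). Gsdmc4 had 383, 278, 616 and 447 FPKM in control and 161, 59.4, 249 and 188 in FGF1 (-1.502 ± 0.84, limma, adjusted p = 0.463), and it has near-identical neighbours.

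**Figure D3:**
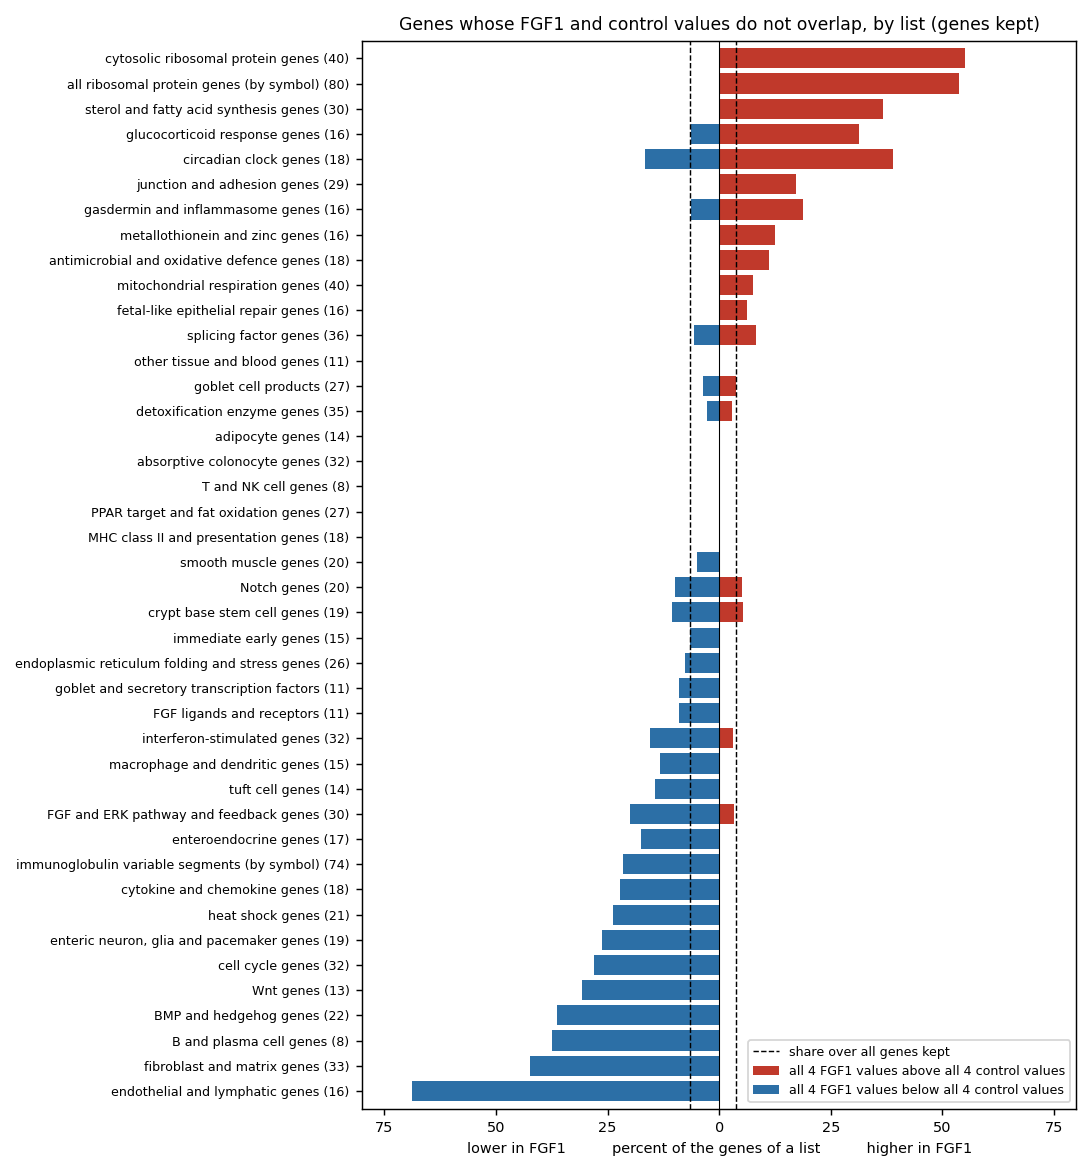
Percent of the kept genes of each list (number in brackets) whose 4 FGF1 values lie above (red, right) or below (blue, left) all 4 control values; the dashed lines mark the shares over all 12367 genes, 3.7% and 6.64%. Endothelial and lymphatic genes reach 68.8% on the lower side and cytosolic ribosomal protein genes 55% on the higher side.

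Goblet cell genes lay on both sides of the controls. Goblet cells secrete the MUC2 mucus gel, and the study's title concerns their formation from stem cells. Of 27 kept goblet cell products none was called by limma, 4 were higher and 4 lower at an unadjusted p under 0.05, and 1 lay wholly on either side (3.7% each; median log2 fold change 0.04). Without FGF1 3 the count below was 4 (14.8%), and without control 2 or FGF1 1 the count above was 3 (11.1%). Muc2 had 3024, 5609, 3341 and 4701 FPKM in control and 2991, 3620, 3965 and 2831 in FGF1 (-0.28 ± 0.25, limma, adjusted p = 0.663). Clca1, a metalloprotease of mucus, had 356, 400.5, 231 and 189 and 72.9, 176, 181 and 138, wholly below the controls (-1.06 ± 0.29, limma, adjusted p = 0.152). Zg16, a lectin of mucus that binds bacteria, had 193, 376, 40.1 and 101 and 164, 830.1, 317 and 572 (1.59 ± 0.61, limma, adjusted p = 0.271). Tff3, a trefoil peptide, had 459 ± 269.6 and 655 ± 308, Fcgbp, a mucus scaffold protein, 194 ± 82.5 and 197 ± 99.0, and Agr2, which folds mucin, 2069 ± 249 and 1704 ± 321. These 3 and Zg16 overlapped, and Fcgbp turned sign under several alternatives, median-of-ratios scaling among them (0.01). Pdia5, a folding enzyme, was the product wholly above the controls (29.4 to 38.2 and 38.5 to 45.2 FPKM, 0.34). Of 11 kept goblet and secretory transcription factors none was called by limma, and 1 was higher and 1 lower at an unadjusted p under 0.05, with 1 wholly below the controls (9.09%) and none above (3 above without control 2). Spdef, which drives goblet maturation, had 30.4 ± 3.96 and 29.1 ± 4.62 FPKM, and Klf4 113 ± 17.3 and 131 ± 19.1, and start-event values gave 0.48 for Spdef, against -0.07 here. Gfi1, a repressor that separates secretory fates, had 2.12, 4.18, 3.17 and 3.27 in control and 4.10, 5.37, 4.47 and 4.78 in FGF1 and overlapped (0.46). Xbp1, a factor of the secretory pathway, had 62.8 to 75.8 and 55.9 to 61.6 (-0.22). Atoh1, the switch to the secretory lineage, is not analysed here.

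Stem cell, cycling and other secretory lineages showed the following values. Lgr5, the marker of crypt base stem cells, had 0.956, 1.49, 1.26 and 1.42 FPKM in control and 2.24, 2.06, 1.96 and 1.67 in FGF1, wholly above the controls at low levels (0.39 ± 0.15, limma, adjusted p = 0.258). Of 19 kept stem cell genes none was called by limma, 2 were higher and 3 lower at an unadjusted p under 0.05. Tnfrsf19, a Wnt target of stem cells and stroma, had 1.82, 2.35, 1.755 and 2.11 and 0.898, 0.778, 1.14 and 0.787 (-0.66 ± 0.13, limma, adjusted p = 0.0847). Olfm4 was listed near 0 in all 8 libraries, and Hes1, a Notch target, had 34.1 ± 5.70 and 42.98 ± 7.96. Of 32 kept cell cycle genes 31 had a log2 fold change below 0 (median -0.35), none was called by limma, 6 were lower at an unadjusted p under 0.05 and 9 lay wholly below the controls (28.1%). That count was 21 without control 2, 7 under median-of-ratios scaling or from the largest transcript, and 6 from start-event values. Mki67, which marks cycling cells, had 13.6, 10.3, 19.6 and 12.5 and 8.02, 9.44, 9.94 and 7.57 (-0.59 ± 0.30, limma, adjusted p = 0.412), and Mcm3, a replication licensing factor, 11.4, 7.45, 9.60 and 7.72 and 5.56, 5.30, 6.84 and 4.10 (-0.64). Enteroendocrine genes had a median of -0.54, with none called by limma, 6 of 17 lower at an unadjusted p under 0.05 and 3 wholly below the controls (17.6%; 6 without control 3 and 5 without control 2 or FGF1 3). Sst, the hormone somatostatin, had 87.7, 44.2, 85.7 and 82.6 and 49.6, 19.4, 21.5 and 20.03 (-1.48 ± 0.39, limma, adjusted p = 0.142), and Chga, a granule protein of these cells, 68.9 ± 33.6 and 40.04 ± 9.26. All 14 kept tuft cell genes had a log2 fold change below 0 (median -0.48), and 2 lay wholly below the controls (14.3%), among them Rgs13 with 3.35 to 5.28 and 1.94 to 2.75 FPKM (-0.62). The count of tuft cell genes was 7 without FGF1 3, 6 without control 2, and 1 under median-of-ratios scaling or from the largest transcript. Of 32 kept genes of absorptive colonocytes none lay wholly on either side (3 above without FGF1 3, and 3 below without control 3). Slc26a3, the chloride and bicarbonate exchanger, had 72.8 ± 23.1 and 59.5 ± 33.7, and Slc9a3, the sodium and proton exchanger, 29.9 ± 5.35 and 37.98 ± 5.73.

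Endothelial genes had the highest share of members below the controls among all lists. All 16 kept endothelial and lymphatic genes had a log2 fold change below 0 (median -0.78). None was called by limma, 14 were lower at an unadjusted p under 0.05, and 11 lay wholly below the controls (68.8% against 6.64% of all genes). Among genes of lymphatic vessels, Ccl21a, a chemokine that draws cells into lymph, had 20.2, 18.7, 26.4 and 14.2 FPKM in control and 3.50, 3.02, 5.34 and 4.73 in FGF1 (-2.01 ± 0.39, limma, adjusted p = 0.0771). Lyve1, a hyaluronan receptor, had 3.46, 3.81, 5.87 and 2.74 and 0.726, 0.548, 0.721 and 1.17 (-1.45 ± 0.30, limma, adjusted p = 0.0880). Mmrn1, also of lymphatic endothelium, had 1.03 to 2.55 and 0.160 to 0.290 (-1.13), and was the 1 of the 11 that passed the filter through the controls alone. Of the genes of all endothelium, Pecam1 had 7.25, 8.51, 7.65 and 7.11 and 2.46, 2.55, 5.09 and 3.82 (-0.98 ± 0.35, limma, adjusted p = 0.227), and Eng, a TGF-beta co-receptor, 7.80 to 8.57 and 2.48 to 5.76 (-0.99). The mean log2(FPKM + 1) of the list ran from 2.58 to 2.78 in control, from 1.65 to 2.12 in FGF1 and from 0.942 to 2.02 in DSS, and FGF1 3 was the highest FGF1 library.

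Of 33 kept fibroblast and matrix genes 32 had a log2 fold change below 0 (median -0.83), none was called by limma, 17 were lower at an unadjusted p under 0.05 and 14 lay wholly below the controls (42.4%). That count was 28 without FGF1 3, 11 from the largest transcript and 10 from start-event values. The filter was passed through the controls alone by 1 of the 14. The list's mean ran from 3.84 to 4.38 in control and from 2.73 to 3.83 in FGF1. Clec3b, a secreted lectin of fibroblasts, had 20.7, 16.6, 21.2 and 15.3 FPKM in control and 3.11, 3.16, 5.995 and 4.47 in FGF1 (-1.93 ± 0.33, limma, adjusted p = 0.0543). Dpt, a matrix protein, had 46.8, 53.9, 77.4 and 51.9 and 13.6, 13.5, 29.0 and 14.2 (-1.71 ± 0.37, limma, adjusted p = 0.0911). Dcn, a proteoglycan that binds collagen, had 38.1 to 67.5 and 7.89 to 30.2 (-1.56), whereas Col3a1, a fibrillar collagen, had 57.6, 53.9, 83.7 and 72.1 and 19.6, 30.9, 60.1 and 44.1 and overlapped through FGF1 3 (-0.86 ± 0.46, limma, adjusted p = 0.435). Smooth muscle genes had a median of -0.66, but 1 of 20 lay wholly below the controls (5%; 4 without FGF1 3). Acta2 had 551, 553, 1495 and 1057 and 564, 419, 1017 and 201, and Myh11, the smooth muscle myosin, 178, 189.9, 555 and 377 and 182, 159, 398 and 54.7, with control 3 and FGF1 3 high and FGF1 4 low. With the smooth muscle list mean added as a covariate, the median was -0.68 for endothelial genes and -0.52 for fibroblast genes. For both lists this was the value nearest 0 among the alternatives. The part of muscle content in these values was not tested. Of 19 kept genes of enteric neurons, glia and pacemaker cells none was called by limma, 8 were lower at an unadjusted p under 0.05 and 5 lay wholly below the controls (26.3%; 10 without control 1, 8 without FGF1 3 and 3 from start-event values), with a median of -0.64. Vip, a relaxing neuropeptide, had 15.6, 23.7, 36.01 and 22.2 and 6.54, 3.09, 11.1 and 5.07 (-1.82 ± 0.37, limma, adjusted p = 0.0868). These medians, and those of sterol, ribosomal and junction genes, kept their signs under median-of-ratios scaling and equal library totals.

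**Figure D4:**
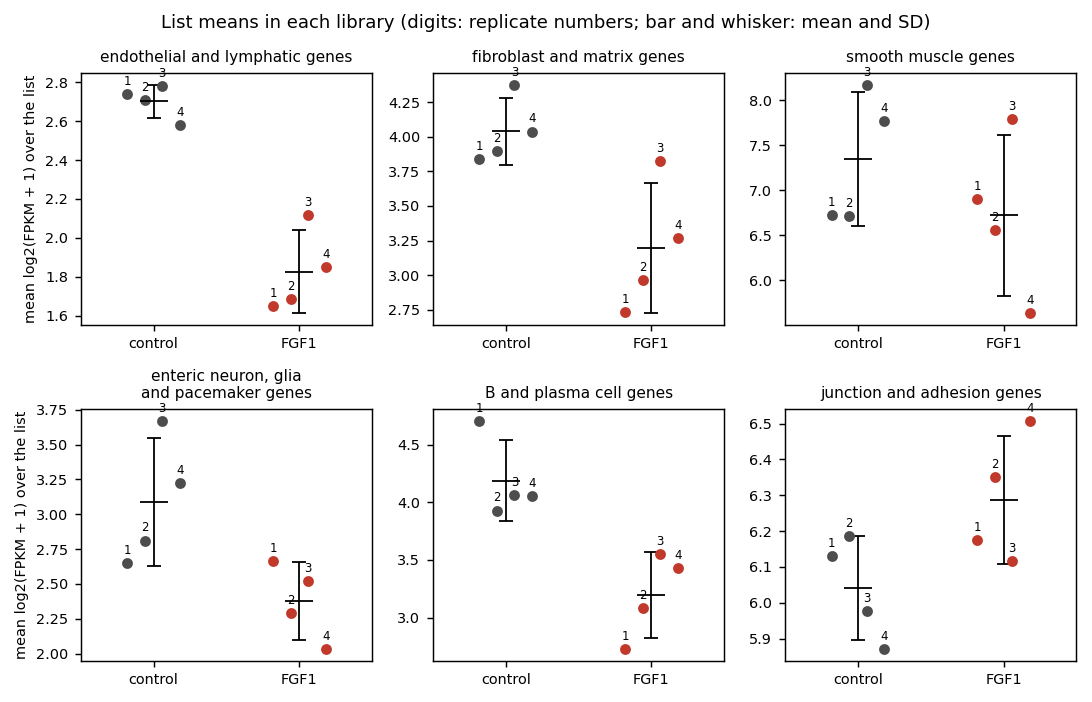
Mean log2(FPKM + 1) of 6 gene lists (vertical axes, not from 0) in each control and FGF1 library (points, numbered by replicate), with the group mean and SD. Endothelial, fibroblast and B and plasma cell means do not overlap between the groups, smooth muscle, enteric and junction means do, and FGF1 3 is the highest FGF1 library for endothelial, fibroblast and smooth muscle genes.

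Genes of BMP, hedgehog and Wnt signalling between mesenchyme and crypt were among the lower genes. Hedgehog proteins from the epithelium act on stromal cells through GLI1, and stromal BMP and Wnt ligands in turn pattern the crypt. Of 22 kept BMP and hedgehog genes none was called by limma, 11 were lower and none higher at an unadjusted p under 0.05, and 8 lay wholly below the controls (36.4%; median -0.43), or 5 from start-event values. Hhip, a hedgehog-binding inhibitor, had 2.87, 1.43, 1.11 and 1.14 FPKM in control and 0.0569, 0.117, 0.431 and 0.369 in FGF1 (-1.05 ± 0.19, limma, adjusted p = 0.0675). Gli1, the factor and target of the pathway, had 1.91, 1.83, 1.70 and 1.74 and 0.318, 0.714, 0.983 and 0.984 (-0.69 ± 0.16, limma, adjusted p = 0.105). Bmp6, a ligand, had 1.23, 1.19, 1.17 and 1.29 and 0.385, 0.328, 0.911 and 0.515 (-0.55). All 3 passed the filter through the controls alone and had to differ, which leaves 5 of the 8. Of 13 kept Wnt genes 4 lay wholly below the controls (30.8%; 2 from start-event values), among them Wnt5a, a ligand of stromal cells, with 2.004, 1.76, 1.76 and 1.87 and 1.15, 0.498, 0.643 and 0.592 (-0.74 ± 0.15, limma, adjusted p = 0.0860), and Sfrp1, a secreted Wnt inhibitor, with 3.69, 3.33, 6.79 and 5.34 and 1.14, 1.10, 2.59 and 1.27 (-1.19 ± 0.26, limma, adjusted p = 0.0962). These ligands and inhibitors are largely made by the stromal cells whose own markers were lower in the same libraries, and the part of the stromal share of the RNA in them was not tested. None of the 13 Wnt genes was called by limma, and 4 had an unadjusted p under 0.05.

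Antibody messages had lower values in FGF1. Plasma cells of the colon wall make immunoglobulin A, which JCHAIN joins into dimers for transport across the epithelium. Igha, the constant region of that antibody, had 2016, 684, 694 and 804 FPKM in control and 119, 151, 316 and 472 in FGF1 (-2.04 ± 0.51, limma, adjusted p = 0.130). Jchain had 343, 126, 153 and 156 and 4.92, 27.1, 58.4 and 23.1 (-3.03 ± 0.62, limma, adjusted p = 0.0868), and Ighm, of immunoglobulin M, 5.85 to 8.86 and 2.48 to 4.11 (-1.06). All 3 lay wholly below the controls, with FGF1 1 lowest for Igha and Jchain, and the mean of the 8 genes ran from 3.93 to 4.71 in control and from 2.73 to 3.55 in FGF1. In DSS that mean ran from 2.35 to 2.90. Igha stood there at 59.9 ± 31.5 FPKM, Jchain at 7.265 ± 5.74 and Ighm at 3.45 ± 1.92 (SD, n = 4). The FGF1 means were 264.5, 28.4 and 3.01, so DSS was lower for Igha and Jchain and not for Ighm. Of 8 kept B and plasma cell genes 3 lay wholly below the controls (37.5%), 4 were lower at an unadjusted p under 0.05 and none was called by limma. Of 74 kept immunoglobulin variable segments 73 had a log2 fold change below 0 (median -1.40), 16 lay wholly below the controls (21.6%; 29 without control 3 and 25 without FGF1 4) and 4 fell. Of the 16, 1 passed the filter through the controls alone, Ighv2-2. The mean log2(FPKM + 1) of the segments ran from 1.86 to 3.40 in control, from 0.388 to 2.00 in FGF1 and from 0.169 to 0.329 in DSS. Ighv2-2 stood at 5.83, 4.08, 5.33 and 3.45 FPKM in control and at 0, 0, 0.685 and 0.444 in FGF1 (-2.16 ± 0.21, limma, adjusted p = 0.00249). Igkv1-110 stood at 37.6, 40.5, 73.3 and 32.1 and at 4.06, 6.22, 16.8 and 5.94 (-2.44 ± 0.37, limma, adjusted p = 0.0377). Ighv1-9 and Ighv1-22 fell by 2.06 and 2.88 on the log2 scale (limma, adjusted p = 0.0377 and 0.0447). Variable segments are near-identical in sequence, so reads may be split between them, and which segments a mouse uses differs between animals. Values of single segments are uncertain for that reason.

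Values for other immune genes were as follows. Of 15 kept macrophage and dendritic genes none was called by limma, 6 were lower at an unadjusted p under 0.05 and 2 lay wholly below the controls (13.3%; 8 without control 3, 7 without FGF1 4 and 4 with equal totals). Mrc1, the mannose receptor of tissue macrophages, had 2.33, 2.06, 1.22 and 2.07 FPKM in control and 0.388, 0.451, 0.556 and 0.934 in FGF1 (-0.88 ± 0.20, limma, adjusted p = 0.105), and as 1 of those 2 it passed the filter through the controls alone. Csf1r, the receptor for their growth factor, had 5.46, 4.87, 2.82 and 3.45 and 1.17, 1.42, 2.35 and 3.02 and overlapped (-0.798 ± 0.26, limma, adjusted p = 0.202). Of 18 kept cytokine and chemokine genes 1, Ccl11, fell, and 4 lay wholly below the controls (22.2%; 2 from start-event values). Limma gave 5 of the 18 an unadjusted p under 0.05. Cxcl14, a chemokine of fibroblasts and epithelium, had 24.7, 8.53, 23.1 and 19.8 and 5.97, 4.09, 7.18 and 5.11 (-1.53 ± 0.41, limma, adjusted p = 0.146). Among neutrophil, mast cell and eosinophil genes 1 of 20 listed genes passed the filter. T and NK cell genes had 4 members on either side of 0, with none wholly on either side (2 below without control 3).

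Single transcripts were tested apart from gene sums. Limma called 14 of 21592 transcripts (0.0648%), 3 higher (0.0139%) and 11 lower (0.0509%). FGF1 values lay wholly above the controls in 639 transcripts (2.96%) and wholly below in 778 (3.6%), 6.56% in all, and 8.82% had an unadjusted p under 0.05. The transcripts that rose belonged to clock genes or a clock-driven gene: Dbp-201 stood at 0.563, 1.17, 0.866 and 1.20 FPKM in control and at 5.83, 7.06, 8.69 and 5.27 in FGF1 (1.98 ± 0.21, limma, adjusted p = 0.00523). Nr1d2-201 stood at 3.36, 4.61, 3.20 and 4.02 and at 9.50, 12.4, 9.37 and 11.99 (1.3 ± 0.19, limma, adjusted p = 0.0462). Noct-201, of a rhythmic enzyme that removes phosphate from NADP, stood at 1.52, 1.29, 1.56 and 1.51 and at 6.04, 7.81, 14.4 and 7.05 (1.93 ± 0.27, limma, adjusted p = 0.0419). In all 3 transcripts the groups were far apart. The sum over the transcripts of Noct moved less and was not called. It stood at 7.54, 7.48, 7.57 and 8.34 in control and at 10.06, 11.2, 19.2 and 10.9 in FGF1 (0.62 ± 0.24, limma, adjusted p = 0.280).

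In 8 of the 11 transcripts that fell, every FGF1 value was under 1 FPKM, so they passed the filter through the controls alone and had to differ; with 1 FPKM required in all 8 libraries limma called 0 transcripts, with 1160 at an unadjusted p under 0.05. The other 3 of the 11, Ccl11-201, Adgra2-201 and Kifc2-204, each had 1 FGF1 library at 1 FPKM or more. Of the 8, 3 were listed at 0 in every FGF1 library. Mr1-201, of a presenting molecule for microbial vitamin B metabolites, had 1.78, 1.82, 2.56 and 1.79 FPKM in control (limma, adjusted p = 9.66e-04). Dmd-201, of dystrophin, had 1.17, 1.49, 1.82 and 1.12 (limma, adjusted p = 0.00521), and Ehmt1-202, of a histone methyltransferase, 4.54, 5.13, 8.72 and 1.28 (limma, adjusted p = 0.0419). In the DSS libraries all 3 were likewise listed at 0. A further transcript, Gfra1-203, was at 0 in all FGF1 and at 1 FPKM or more in all control libraries without being called, and Prss22-201 was the 1 transcript with the reverse pattern. A value of 0 can mean absence or a transcript that assembly did not recover. Rexo4-201, of an exonuclease of the nucleolus, stood at 7.57, 3.83, 3.44 and 3.99 in control and at 0.0252, 0.493, 0.0901 and 0.0486 in FGF1 (-2.26 ± 0.23, limma, adjusted p = 0.00521). Adgra2-201, of a receptor that aids Wnt signalling in vessels, stood at 3.35, 3.32, 5.16 and 4.30 and at 0.308, 1.03, 0.843 and 0.685 (-1.55 ± 0.20, limma, adjusted p = 0.0296). The others were Ighv2-2-201, Ccl11-201, Dact1-201, Trpm5-207, Kifc2-204 and an unnamed transcript of Lamb1. The count of calls ran from 6 to 18 when single libraries were left out.

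The share of a gene's FPKM that each transcript held was tested in 21906 transcripts, and limma called 1 (0.00456%), with 1117 (5.1%) at an unadjusted p under 0.05. FGF1 shares lay wholly above the controls in 316 transcripts (1.44%) and wholly below in 336 (1.53%), 2.98% in all. Hap1-204, of the huntingtin-associated protein, held 15.7, 20.7, 14.1 and 15.2 percent of its gene's FPKM in control and 0 in all FGF1 libraries (difference -16.44 ± 1.56 percentage points, SE; limma, adjusted p = 0.00931), and 0 in all DSS libraries too. With 0 in every FGF1 library, Hap1-204 reached the mean share of 5 percent through the controls alone, so its groups had to differ. Its call was lost in the 8 libraries alone, without a trend and with a replicate block. The transcript is not tested where 1 FPKM is required of it in all 8 libraries. The following shares were not called. Kifc2-204, a retained intron form of a kinesin message, held 83.5, 87.7, 87.5 and 85.3 percent in control and 5.81, 6.5, 9.13 and 27.8 in FGF1 (limma, adjusted p = 0.131), against 86.2, 37.4, 86.3 and 91.5 in DSS. Wdr83-201, of a scaffold of the ERK cascade, held 35.3, 34.5, 24.7 and 25.9 in control and 79.2, 76.4, 73.1 and 70.9 in FGF1 (limma, adjusted p = 0.131), against 37.0, 21.5, 41.4 and 27.4 in DSS. Rexo4-202 held 29.8, 36.02, 30.1 and 30.2 in control and 68.5, 69.3, 66.4 and 61.0 in FGF1 (limma, adjusted p = 0.131), the counterpart of the fall in Rexo4-201. It held 59.7, 64.5, 72.7 and 66.4 in DSS, near the FGF1 shares. The remaining 4 of the 8 shares with the smallest p were Srp19-202, Ankrd24-209, Pdgfra-208 and Gm15545-204. Their differences were -26.4, -25.8, -13.5 and 18.5 percentage points, and for Pdgfra-208 the fit left out 2 DSS libraries in which the gene was under 1 FPKM. Srp19-202 was at 0 in all DSS libraries, and Pdgfra-208 was at 0 in the DSS libraries that were fitted. Ankrd24-209 held 22.9, 20.7, 21.9 and 17.6 percent in DSS, and Gm15545-204 13.9, 13.8, 25.15 and 9.31. Pdgfra-208, at 0 in all FGF1 libraries, likewise passed the share filter through the controls alone. Gm15545-204, at 0 in all control libraries, passed it through the FGF1 libraries alone. Gm15545 is an antisense gene, and whether the counting used strand is not given in the sources used here. In these 8 shares every FGF1 library lay outside the control range. They were picked by smallest p in the same data, so that separation adds no support.

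**Figure D5:**
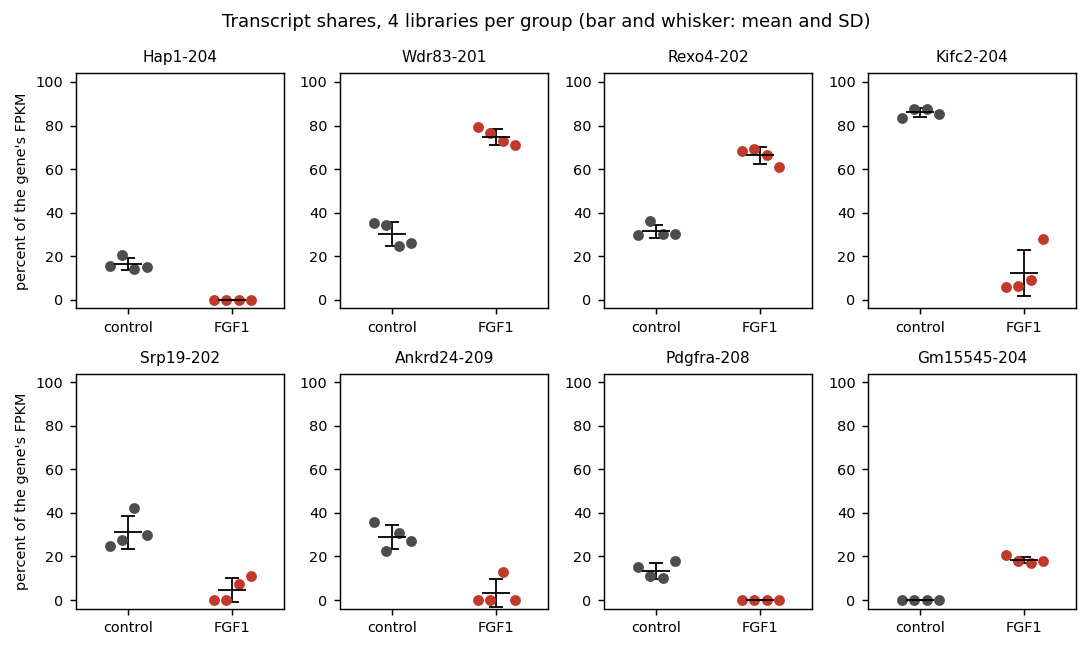
Share of a gene's FPKM (percent, vertical axis) held by 8 transcripts in the 4 control and 4 FGF1 libraries (points), with the group mean and SD. Hap1-204, the 1 called share, is at 0 in all FGF1 libraries, and Kifc2-204 ranges from 83.5 to 87.7 percent in control and from 5.81 to 27.8 percent in FGF1.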

How the data were processed

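Polyadenylated RNA of mouse colon was sequenced from 5 µg of total RNA per library, per the labels' protocols. The submitters' processing notes name cutadapt 1.9, HISAT2 2.0.4, StringTie 1.3.4d, edgeR (no version) and genome build GRCm38, without saying which step each tool served. The authors deposited FPKM values of transcripts that enter a splicing or end event, so genes whose transcripts enter none are not listed. Per-sample columns of other samples numbered 0. Each transcript was taken once (its largest listed value), and transcripts were summed to genes, with positions from GENCODE vM21. Read counts are unknown: under the best step found, the share of low values that came within 0.05 of a whole number of reads was 40.9% to 49.1% per library, so no count test was run and the counting error is unknown.

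Genes with at least 1 FPKM in 4 or more of the 8 control and FGF1 libraries were tested with limma 3.58.1 (R 4.3.3; trend, two-sided) on log2(FPKM + 1), 1 fit over all 12 libraries, Benjamini-Hochberg adjustment over all genes and calls at an adjusted p under 0.05. Transcripts were tested likewise, and shares of transcripts holding on average 5 to 95 percent of a gene at 1 FPKM or more in all 8 libraries, with DSS libraries under 1 FPKM left out. The test was tried on simulated data. Errors of levels are SDs and errors of fold changes SEs. Named genes are the 12 per direction with the largest change among calls whose groups did not overlap, then by smallest p, up to 4 called members of each list, a fixed set on FGF signalling and colon cell types, and 8 shares; other genes were named after their values were seen. The members and the 41 gene lists, and 2 lists taken by symbol, were chosen with earlier results of these data known. Alternatives varied the pseudocount (0.1), filter, scaling, model, gene value and libraries. Some members are not reported here.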

Additional observations from a re-analysis of the deposited data

Results flagged for a closer look

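In 114 groups of 4 libraries, Dixon's test at the 95% level marked 14 values as far from the other 3. About 1 in 20 would be marked by chance. FGF1 3 accounted for 8 of the 14. Among called genes, Scgn was 1.96 FPKM in FGF1 3 against 1.52 to 1.56 in the other FGF1 libraries, and Igkv1-110 was 16.8 against 4.06 to 6.22. Ighv1-9 was 1.65 FPKM in FGF1 2 against 0.599 to 0.699. In each case the outlying library was the FGF1 library nearest to the controls.

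The list means on the log2(FPKM + 1) scale gave the following outlying libraries. In FGF1 3, FGF and ERK pathway genes had a mean of 3.39 (others 3.21 to 3.24) and BMP and hedgehog genes 2.92 (others 2.39 to 2.46). Immediate early genes had 3.88 there (others 3.30 to 3.35), metallothionein and zinc genes 4.36 (others 4.65 to 4.71) and mitochondrial respiration genes 7.59 (others 7.73 to 7.75). The number of genes at 1 FPKM or more was 12245 in FGF1 3 against 11782 to 11832. In FGF1 4, adipocyte genes had a mean of 2.18 (others 3.94 to 4.08) and absorptive colonocyte genes 6.75 (others 6.44 to 6.49). Among the controls, absorptive colonocyte genes had 6.13 in control 3 (others 6.531 to 6.603), heat shock genes 5.81 in control 3 (others 5.44 to 5.46) and tuft cell genes 1.84 in control 2 (others 2.28 to 2.35). FGF1 3 was the FGF1 library richest in smooth muscle RNA and FGF1 4 the poorest.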

How the results depend on the processing

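The 11 gene calls became 0 with a pseudocount of 0.1 (1579 genes at an unadjusted p under 0.05), 49 without the filter, 0 with 1 FPKM required in all 8 libraries (1262), 38 in the 8 libraries alone, 37 without a trend, 2 with the mean of smooth muscle genes added as a covariate, 37 without control 3 and FGF1 3 together, 3 from start-event values and 19 from the largest transcript, and 1 to 86 with 1 library left out. The 14 transcript calls became 1 with the pseudocount of 0.1, 0 (1160) with 1 FPKM in all 8 libraries, 8 with the covariate and 6 to 18 with 1 library left out. The 1 share call became 3 without the filter, 2 with the transcript at 1 FPKM in all 8 libraries, 6 in the 8 libraries alone, 2 without a trend, 10 without both libraries numbered 3 and 2 to 11 with 1 library left out. The cause of these shifts was not tested. Listed transcripts differed by -2645 to -1995 with 1 library left out (p = 0.0571 without FGF1 1 or FGF1 2) and by -773 at 1 FPKM or more (p = 0.0857, exact permutation tests).

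Whether the replicate numbers pair the samples was not tested. Deviations from the group mean correlated between control and FGF1 libraries of the same number at 0.02, 0.17, 0.41 and -0.07 for numbers 1 to 4. Only control 3 correlated best with the FGF1 library of its own number. With a replicate block limma called 3 genes, 0 transcripts (2258 at an unadjusted p under 0.05) and 0 shares (978).

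Over 2722 values of 132 named genes under the alternatives, 23 in 11 genes changed sign. Fgfr3 gave 0.0024 without both libraries numbered 3 and -0.24 to 0.029 with 1 library left out, highest without control 3. Etv4 gave 0.14 with the covariate, -0.53 to 0.20 with 1 library left out (highest without control 3) and 0.33 from its largest transcript. Fcgbp gave 0.0096 under median-of-ratios scaling, 0.27 without both libraries numbered 3, -0.32 to 0.30 with 1 library left out (above 0 without control 2, control 3, FGF1 1 or FGF1 3), and 0.19 from its largest transcript. Spdef gave -0.15 to 0.026 with 1 library left out (above 0 without control 2 or FGF1 4) and 0.48 from start-event values. Vil1 gave -7.4e-05 without both libraries numbered 3 and -0.0067 without control 3. Start-event values gave -0.20 for Hmgcs1 and 3.50 for Hsp90aa1. The largest transcript gave -0.16 for Fdft1, -0.13 for Marveld2, 0.075 for Spry1 and -3.69 for Map2k2. The adipocyte median ran from -0.75 to 0.16 with 1 library left out (above 0 without control 2 or FGF1 4). Median-of-ratios scaling moved the median of all genes from -0.04 to 0.00 and the split of non-overlapping genes from 457 higher and 821 lower to 653 and 663. Alternatives on lists were chosen after seeing the data. Counts of reads are unknown, so differences in transcripts near 0 FPKM have no known counting error.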

Other observations

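Heat shock genes had lower values in the FGF1 libraries. Of 21 kept members 18 had a log2 fold change below 0 (median -0.34), none was called by limma, 7 were lower at an unadjusted p under 0.05 and 5 lay wholly below the controls (23.8%; 3 from start-event values). Hsph1, a chaperone that recharges HSP70, had 40.1, 71.9, 48.7 and 35.7 FPKM in control and 19.5, 21.8, 30.9 and 16.9 in FGF1 (-1.09 ± 0.29, limma, adjusted p = 0.150). Hsp90aa1, the inducible form of HSP90, had 65.2, 88.2, 80.8 and 84.3 and 41.6, 34.6, 61.2 and 34.8 (-0.902 ± 0.22, limma, adjusted p = 0.124). Both lay wholly below the controls. The start-event value of Hsp90aa1 had the opposite sign (3.50). Among 26 kept genes of folding and stress in the endoplasmic reticulum 2 lay wholly below the controls (7.69%; 6 without FGF1 3, 4 without control 2 or control 3, 0 under median-of-ratios scaling) and none above, and none was called by limma, with 2 at an unadjusted p under 0.05.

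Among 36 kept splicing factor genes, 3 lay wholly above the controls (8.33%; 7 without control 3, 5 without FGF1 1, 1 from the largest transcript) and 2 below (5.56%). None was called by limma, and 6 had an unadjusted p under 0.05. Esrp2, a splicing regulator of epithelial cells, had 18.6, 23.8, 24.9 and 22.1 FPKM in control and 29.4, 43.4, 29.3 and 45.0 in FGF1 (0.67 ± 0.16, limma, adjusted p = 0.107). Qk, a splicing regulator prominent in muscle and mesenchyme, had 3.12, 3.29, 5.30 and 4.39 and 1.39, 1.64, 2.21 and 1.15 (-0.95 ± 0.20, limma, adjusted p = 0.0877). These regulators of opposite cell classes lay on opposite sides, and the part of the stromal and epithelial shares of the RNA in them was not tested. Hnrnpu, a nuclear RNA-binding protein, had 39.8 to 48.8 and 69.95 to 84.4 (0.79).

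Of 32 kept interferon-stimulated genes 5 lay wholly below the controls (15.6%; 2 under median-of-ratios scaling or from the largest transcript, 1 from start-event values) and 1 above (3.12%). Gbp4, 1 of the 5, passed the filter through the controls alone and had to differ. Bst2, which tethers budding viruses, had 20.1 to 24.6 FPKM in control and 15.2 to 18.96 in FGF1 (-0.35), and Gbp4, a guanylate-binding protein, 1.19 to 1.44 and 0.369 to 0.985 (-0.52). Gbp genes have near-identical neighbours. Limma called none of the 32, and 6 had an unadjusted p under 0.05. No member of the 18 kept MHC class II and presentation genes lay wholly on either side (4 below without control 3, 22.2% against 8.9% of all genes), and Cd74, the invariant chain, had 116, 83.5, 49.0 and 72.5 and 16.9, 24.7, 61.3 and 63.5 (-1.08 ± 0.46, limma, adjusted p = 0.321). Of 18 kept antimicrobial and oxidative defence genes 2 lay wholly above the controls (11.1%; 4 without FGF1 3), and none was called by limma, with 5 at an unadjusted p under 0.05. Dmbt1, a secreted scavenger protein of mucus, had 1368, 1248, 788 and 1398 and 1643, 1706, 1544 and 1846 (0.52). Noxo1, the organizer of the epithelial oxidase NOX1, had 36.8, 31.9, 45.7 and 41.3 and 52.9, 57.8, 54.5 and 49.0 (0.46).

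Of 20 kept Notch genes 1 lay wholly above the controls (5% against 3.7% of all genes) and 2 below (10% against 6.64%). There were 4 below without control 1 or FGF1 3, and 3 above and 0 below from the largest transcript. Dll1, a ligand of secretory progenitors, had 3.11 ± 0.456 FPKM in control and 4.70 ± 1.16 in FGF1 (SD, n = 4 each; 0.45), and Notch2, a receptor, 2.42 ± 0.917 and 1.22 ± 0.357 (-0.595). Limma called none of the 20, and 5 had an unadjusted p under 0.05. Of 16 kept genes of the fetal-like repair state 1, Krt7, a keratin, lay wholly above the controls (6.25% of the list; 30.8 to 48.3 and 50.2 to 63.3 FPKM, 0.48), and none was called by limma. Of 35 kept detoxification enzymes Cyp2s1 lay wholly above (0.56) and Gstt1 wholly below (-0.85), each 2.86% of the list and under the share over all genes. None of 27 kept PPAR target genes lay wholly on either side.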
